A study of Rattus norvegicus with 13 samples.

Results

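The genes described here are 45 genes of mitosis, taken by name: the kinases, checkpoint proteins, motors and structural proteins with which a cell builds a spindle, separates its chromosomes and divides. A probe was included where its gene symbol, in the current or an older form, was one of the 45 and where it had at least 2 values in every group. Of the 45 genes, 37 had such a probe and 7 of these had 2, which gave 44 probes among the 17965 tested on the array, which carry 9818 gene names in all. The other 8 genes (Birc5, Bub1b, Ccnb1, Cdca3, Cdca8, Cks2, Ndc80 and Nuf2) had no probe under their names and were not analysed here. A second Cenpe probe had too few control values to be tested. The probe of Cdk1 stands in the array's annotation under the older name Cdc2a.

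The samples were islet pools from male Sprague-Dawley rats of about 250 g, kept in medium with 8 mM glucose and 10% serum, about 200 islets per condition. One group of 5 arrays came from islets that received an adenovirus carrying hamster Nkx6.1, and another of 3 arrays from islets that received mouse Pdx1. The control group of 5 arrays (bGAL) received the same kind of adenovirus with beta-galactosidase, so every group had been infected. Each virus used the CMV promoter, which is active in most cell types and not in beta cells alone, was left on the islets for 18 h, and was followed by 60 h of culture. Nkx6.1 and Pdx1 are homeobox transcription factors of the beta cell lineage, and each comparison with bGAL asks what adding one of them changes in islet RNA. The arrays of a group are independent islet isolations per the series' design text. Islet RNA, labelled with Cy5, was hybridized with a Cy3-labelled pooled rat reference RNA, so every value is a log2 ratio of islet over reference RNA, and a value below 0 means less signal in the islets than in the reference.

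Mitosis begins when cyclin B and Cdk1 form an active kinase, with Plk1 and the Aurora kinases acting beside it. The spindle checkpoint then holds the anaphase-promoting complex until every kinetochore is attached, after which that ubiquitin ligase destroys securin and the mitotic cyclins, and cytokinesis follows. Most of these genes are transcribed only in late S, G2 and M phase, so their RNA is low in tissues that divide little, and adult islets are such a tissue.

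The islet origin of the RNA was plain on all arrays: the hormone genes Ins1, Ins2, Gcg, Sst, Ppy and Iapp lay between 2.49 and 8.24 on every one. The probe for rat Nkx6-1 averaged 3.19 under Nkx6.1, 3.08 under Pdx1 and 3.72 under bGAL, so it did not show the hamster transgene, and no probe was named Pdx1 here. Arrays differed in how many probes were left empty. Over 30% were empty on Nkx6.1 array 1 and on bGAL arrays 1, 2, 3 and 5, whereas the other 8 arrays had 0.230% to 15.5% empty. Over probes complete on all arrays, the SD of the log ratios was 1.78 to 1.90 on the 5 arrays with many empty values, 2.14 on Nkx6.1 array 2 and 1.43 to 1.5 on the other 7. Nkx6.1 array 2 stood apart, correlating with the others at 0.557 to 0.725 over all complete probes, against 0.957 to 0.971 for the best match of arrays such as Nkx6.1 3, bGAL 4 and Pdx1 1. Results are therefore given with and without these arrays where they matter.

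Mitosis RNA was higher after both factors than after bGAL. In the comparison of Nkx6.1 with bGAL, 18 of the 44 mitosis probes (40.9%) passed the threshold as higher and 0 as lower, where 0.412% of all tested probes passed as higher (limma, two-sided, Benjamini-Hochberg adjusted over all tested probes, threshold 0.05). In the comparison of Pdx1 with bGAL, 16 (36.4%) passed as higher and 0 as lower, against 0.44% of all probes as higher. At an unadjusted p under 0.05, limma gave 29 higher and 0 lower under Nkx6.1 (all probes: 5.24% higher), and 29 higher and 2 lower under Pdx1 (all probes: 4.09% higher). The 2 lower were second probes of Tacc3 and Anln that had empty values, and their Pdx1 values lay below every control value. The difference was above 0 for 36 mitosis probes under Nkx6.1 and 37 under Pdx1, where 43.7% and 42.3% of all probes had such a difference. Group values did not overlap, with the factor higher, for 21 mitosis probes under Nkx6.1 (all probes: 3.25%) and 27 under Pdx1 (all probes: 8.02%). The median difference of the mitosis probes was 1.21 under Nkx6.1 and 1.35 under Pdx1 on the log2 scale, whereas that of all tested probes was -0.08 and -0.10. The members were chosen with earlier results of these data known, so these shares describe the chosen list and are not a test of it. These comparisons share the 5 bGAL arrays, so their members in common are not independent of each other. Of the 44 probes, 14 were called in both, where 0.161% of all probes were called in both. In bulk RNA, more dividing cells and more mitotic RNA per cell cannot be told apart.

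**Figure D1:**
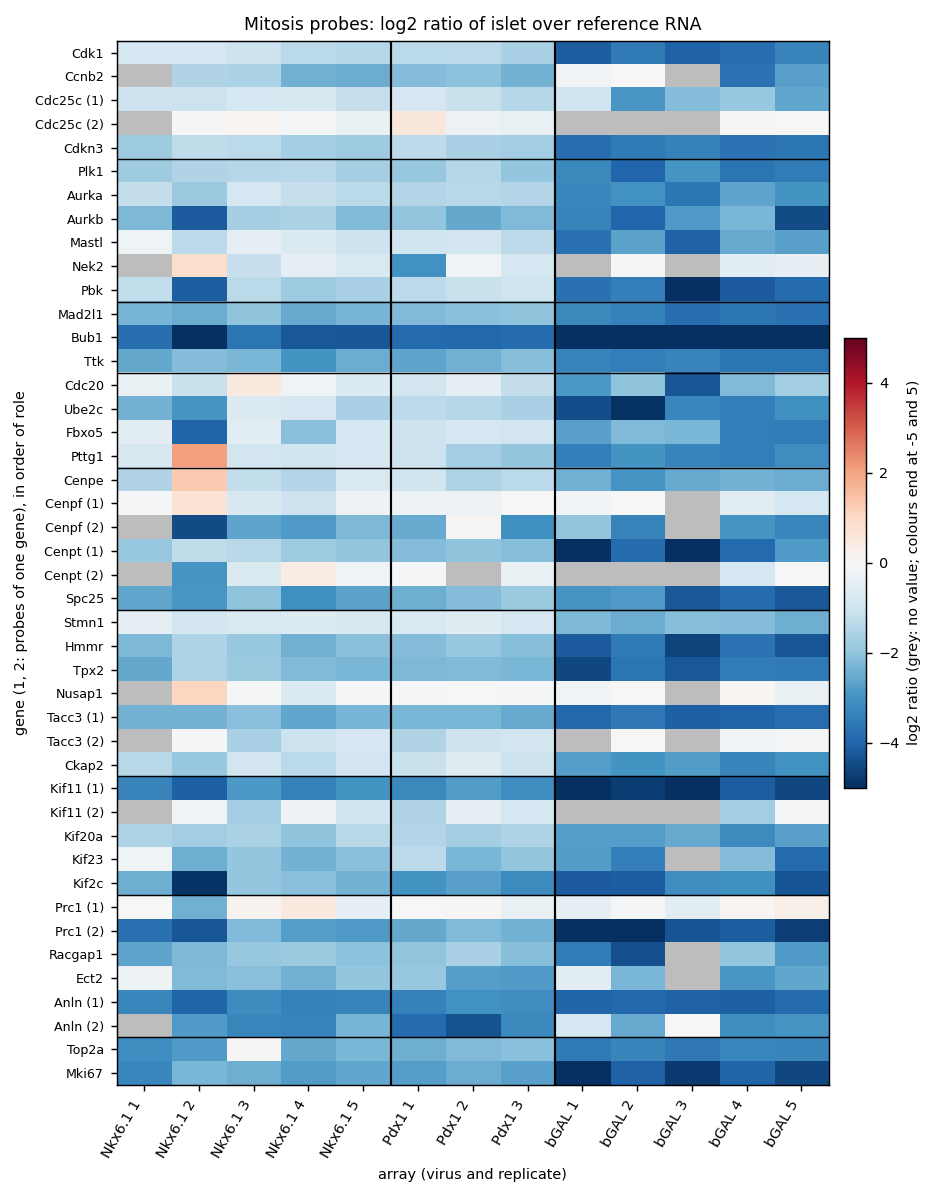
Log2 ratio of islet over reference RNA for the 44 tested mitosis probes (rows, in order of role, lines between roles) on the 13 arrays (columns: Nkx6.1, Pdx1, bGAL), with empty values in grey and colours ending at -5 and 5. The bGAL columns are the darkest blue in most rows, and the grey cells lie mostly on the arrays with over 30% of probes empty.

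Almost all of these transcripts lay below the reference RNA in every group. The mean log2 ratio was below 0 for 43 of the 44 probes under Nkx6.1, 44 under Pdx1 and 43 under bGAL. The median of the probe means was -1.68 under Nkx6.1 and -1.67 under Pdx1, against -3.16 under bGAL. Across the 31 mitosis probes that had no empty value, the median on a single array ran from -2.16 to -1.39 under Nkx6.1 and from -1.94 to -1.71 under Pdx1, against -3.61 to -3.45 under bGAL. The groups given a factor did not overlap the control group in this median. Each probe was also set against its own bGAL mean. The median of these differences was 1.08 to 2.04 on the Nkx6.1 arrays and 1.59 to 1.69 on the Pdx1 arrays. It was -0.18 to 0.18 on single bGAL arrays.

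Shown are the promoters of the 6 genes whose larger p of the 2 comparisons with bGAL was lowest among those with a RefSeq window, because members of this group are known to share G2/M promoter elements. Windows run from 250 bases before to 50 bases after the gene's start (RefSeq, rat build GRCr8, 5′ to 3′ on the gene's strand). Capitals mark TTTGAA or TTCGAA, the letters of the cell cycle homology region (CHR) through which the DREAM and MuvB complexes bind, and CCAAT, the box bound by NF-Y, each searched on both strands. The windows of the forward strand genes are Cdk1 at chr20:19265043-19265342, Cdkn3 at chr15:22502136-22502435, Stmn1 at chr5:151964929-151965228 and Ckap2 at chr16:76541864-76542163. Those of the reverse strand genes are Hmmr at chr10:25665166-25665465 and Tacc3 at chr14:81289649-81289948.
Cdk1: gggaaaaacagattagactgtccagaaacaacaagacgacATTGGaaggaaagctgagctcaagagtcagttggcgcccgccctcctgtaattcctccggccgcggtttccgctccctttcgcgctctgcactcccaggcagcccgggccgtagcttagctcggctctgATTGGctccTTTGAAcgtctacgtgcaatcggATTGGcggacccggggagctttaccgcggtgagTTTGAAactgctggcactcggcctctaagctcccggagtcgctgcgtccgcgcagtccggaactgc
Cdkn3: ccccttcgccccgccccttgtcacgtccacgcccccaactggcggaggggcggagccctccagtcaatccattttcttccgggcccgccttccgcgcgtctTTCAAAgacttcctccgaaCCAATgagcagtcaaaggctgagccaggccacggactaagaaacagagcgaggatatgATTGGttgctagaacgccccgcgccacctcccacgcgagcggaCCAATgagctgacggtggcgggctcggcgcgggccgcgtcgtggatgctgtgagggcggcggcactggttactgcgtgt
Stmn1: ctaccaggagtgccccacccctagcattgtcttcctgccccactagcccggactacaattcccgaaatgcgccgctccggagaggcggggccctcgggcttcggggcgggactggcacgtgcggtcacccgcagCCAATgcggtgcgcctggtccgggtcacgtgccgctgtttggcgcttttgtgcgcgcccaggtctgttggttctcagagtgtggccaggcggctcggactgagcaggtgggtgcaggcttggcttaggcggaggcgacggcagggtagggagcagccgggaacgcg
Hmmr: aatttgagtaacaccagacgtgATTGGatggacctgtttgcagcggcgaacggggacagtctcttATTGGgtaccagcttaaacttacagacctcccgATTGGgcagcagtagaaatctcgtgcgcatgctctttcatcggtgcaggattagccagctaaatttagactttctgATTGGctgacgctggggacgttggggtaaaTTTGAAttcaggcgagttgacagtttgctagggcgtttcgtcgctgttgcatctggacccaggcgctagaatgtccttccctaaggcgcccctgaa
Tacc3: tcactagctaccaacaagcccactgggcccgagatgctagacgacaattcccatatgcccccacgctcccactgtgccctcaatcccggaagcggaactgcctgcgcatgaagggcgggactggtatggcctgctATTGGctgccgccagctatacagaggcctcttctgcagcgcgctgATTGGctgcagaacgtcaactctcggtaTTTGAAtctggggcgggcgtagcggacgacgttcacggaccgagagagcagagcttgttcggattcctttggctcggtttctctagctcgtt
Ckap2: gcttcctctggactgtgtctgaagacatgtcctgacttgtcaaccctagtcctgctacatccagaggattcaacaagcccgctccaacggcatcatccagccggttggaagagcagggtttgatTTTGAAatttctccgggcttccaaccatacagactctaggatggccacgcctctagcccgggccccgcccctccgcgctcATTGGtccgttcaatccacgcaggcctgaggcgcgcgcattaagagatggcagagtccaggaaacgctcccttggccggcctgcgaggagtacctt

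The Cdk1 window held 2 CHR matches, at -72 and -16 from the start, and 3 CCAAT matches. Hmmr held 1 CHR and 4 CCAAT matches, Tacc3 1 and 2, Cdkn3 1 and 3, and Ckap2 1 of each, whereas Stmn1 held 0 CHR and 1 CCAAT match. Of the 45 mitosis genes, 39 had a window, and 29 of these (74.4%) held a CHR match, where 19.5% of the windows of all 27457 genes did. CCAAT was in 30 of the 39 (76.9%), where 37.7% of all genes had it, and 23 (59%) held both, where 7.83% of all genes did. The letters did not separate called from uncalled members by much: 13 of 17 genes called in either comparison held a CHR match (76.5%), and 10 of 14 tested genes called in neither (71.4%). A match describes the letters of this window and says nothing of binding.

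The kinase at the head of mitosis, Cdk1, gave the smallest p of all members under Nkx6.1, and Cdkn3 gave it under Pdx1. Cdk1 had log2 ratios of -0.89, -0.85, -1.03, -1.33 and -1.44 under Nkx6.1, of -1.33, -1.33 and -1.60 under Pdx1, and of -4.11, -3.55, -4.03, -3.82 and -3.28 under bGAL. Every array with a factor lay well above every bGAL array, and the Nkx6.1 and Pdx1 values overlapped. Cdk1 rose by 2.65 (SE 0.21, 6.28-fold, limma adjusted p = 0.000198) under Nkx6.1 and by 2.34 (SE 0.24, 5.06-fold, limma adjusted p = 0.000620) under Pdx1. Cdkn3, a phosphatase that removes an activating phosphate from cyclin-dependent kinases, read -1.77, -1.28, -1.33, -1.72 and -1.76 under Nkx6.1, -1.29, -1.63 and -1.73 under Pdx1, and -3.81, -3.54, -3.39, -3.68 and -3.60 under bGAL. These groups were as cleanly apart as those of Cdk1, with a smaller spread within bGAL. Cdkn3 rose by 2.03 (SE 0.18, limma adjusted p = 0.000465) under Nkx6.1 and by 2.05 (SE 0.21, limma adjusted p = 0.000620) under Pdx1.

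Other members of the cyclin and Cdk1 group were not called. Cdc25c, the phosphatase that activates Cdk1, has 2 probes, with differences of 1.13 and -0.14 under Nkx6.1 and of 0.98 and -0.08 under Pdx1. Ccnb2, a mitotic cyclin, differed by -0.34 under Nkx6.1 and -0.54 under Pdx1, and its control values were split. It read -1.49, -1.60, -2.41 and -2.48 on Nkx6.1 arrays 2 to 5 and -2.18, -2.07 and -2.34 under Pdx1, against -0.17, -0.03, -3.69 and -2.73 on bGAL arrays 1, 2, 4 and 5. The control values near 0 are both from arrays with many empty values. With that set of arrays as a block (described below), the Ccnb2 differences turned to 1.698 under Nkx6.1 and 1.495 under Pdx1. Nkx6.1 array 1 had no Ccnb2 value, so both rest on bGAL array 4 alone as control, and no test is read from them. Ccnb1 and Cks2 had no probe.

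Among the other mitotic kinases, Plk1, Aurka and Mastl rose after both factors and Pbk after Pdx1. Plk1, which acts from mitotic entry to cytokinesis, read -1.78, -1.51, -1.42, -1.40 and -1.66 under Nkx6.1, -1.89, -1.44 and -1.95 under Pdx1, and -3.24, -3.97, -2.94, -3.64 and -3.51 under bGAL. Its lowest value with a factor stood about 1 unit above its highest control value. Plk1 rose by 1.91 (SE 0.22, limma adjusted p = 0.00182) under Nkx6.1 and by 1.70 (SE 0.25, limma adjusted p = 0.00771) under Pdx1. Aurka, the centrosome and spindle pole kinase, read -1.19, -1.84, -0.88, -1.16 and -1.34 under Nkx6.1, -1.45, -1.38 and -1.45 under Pdx1, and -3.25, -3.02, -3.61, -2.65 and -2.99 under bGAL. The controls were lower on every array, and the 3 Pdx1 arrays were nearly identical. Aurka rose by 1.82 (SE 0.23, limma adjusted p = 0.00290) under Nkx6.1 and by 1.68 (SE 0.26, limma adjusted p = 0.0115) under Pdx1.

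Mastl is the Greatwall kinase, which holds down the phosphatase that would undo Cdk1's work. Its values were -0.23, -1.31, -0.48, -0.74 and -1.04 under Nkx6.1, -1.01, -0.90 and -1.30 under Pdx1, and -3.73, -2.67, -4.05, -2.51 and -2.71 under bGAL. No array overlapped the controls, though bGAL arrays 1 and 3 were far below the other controls. Mastl rose by 2.38 (SE 0.32, limma adjusted p = 0.00517) under Nkx6.1 and by 2.07 (SE 0.38, limma adjusted p = 0.0296) under Pdx1. Pbk, a kinase active in mitotic cells, read -1.24, -4.12, -1.34, -1.77 and -1.64 under Nkx6.1, -1.32, -1.12 and -0.98 under Pdx1, and -3.73, -3.40, -4.99, -4.15 and -3.84 under bGAL. Nkx6.1 array 2 alone lay among the controls. Pbk rose under Pdx1 by 2.88 (SE 0.57, 7.38-fold, limma adjusted p = 0.0417), while the difference under Nkx6.1 was 2.00 (SE 0.49, limma adjusted p = 0.0920) and became 2.53 (limma adjusted p = 0.00124) without Nkx6.1 array 2. Aurkb, the kinase of the chromosomal passenger complex, differed by 1.01 under Nkx6.1 and 1.13 under Pdx1 without passing, and Nek2, a centrosome kinase, by -0.04 and -1.0. Birc5 and Cdca8, which work with Aurkb in that complex, had no probe.

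**Figure D2:**
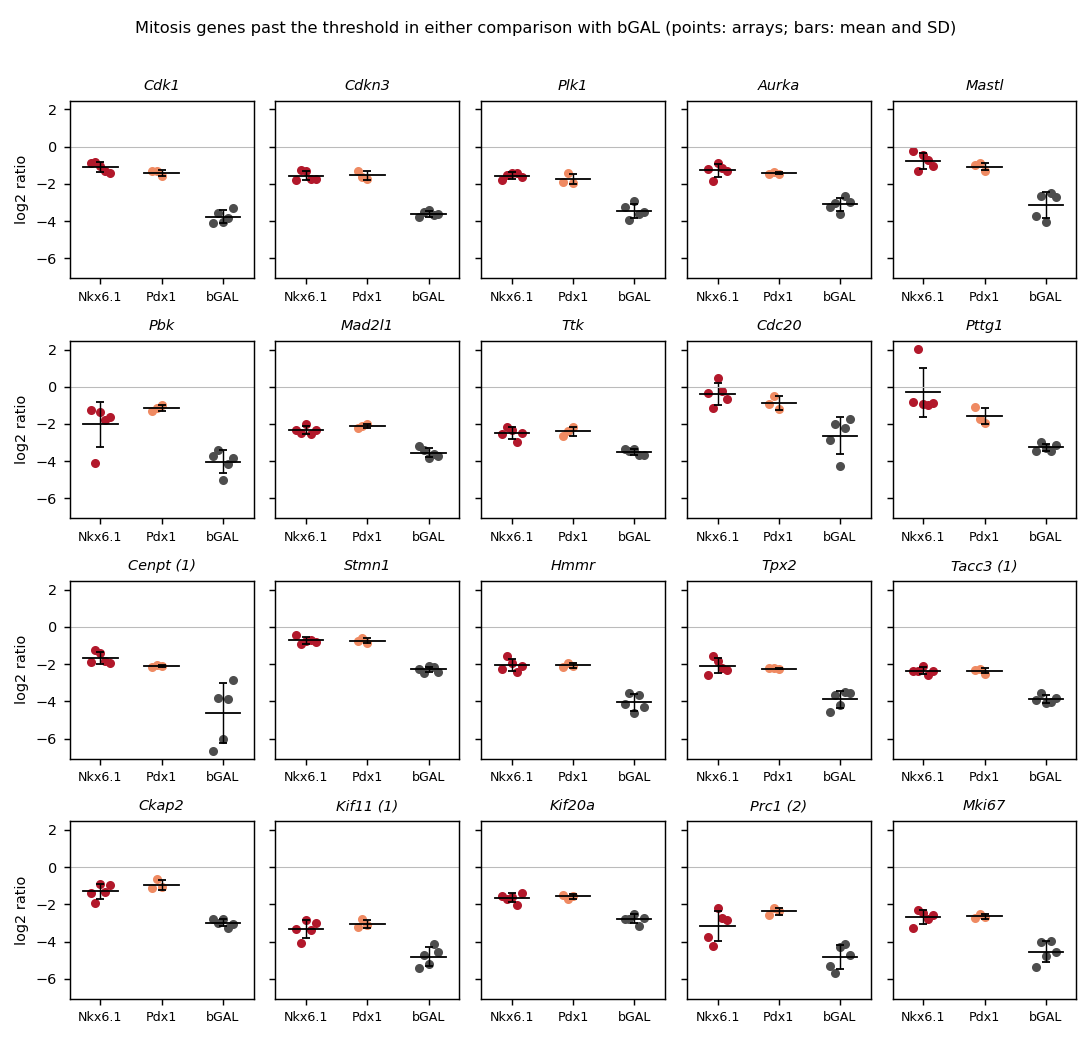
Log2 ratio (vertical axis) of the 20 mitosis genes past the threshold in either comparison with bGAL, 1 panel per gene, with 1 point per array and bars for the mean and SD of Nkx6.1 (5 arrays), Pdx1 (3 arrays) and bGAL (5 arrays). The single low Nkx6.1 point of Pbk (-4.12) and the single high one of Pttg1 (2.04) are the same array, Nkx6.1 2.

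Of the spindle checkpoint genes, Mad2l1 rose after both factors and Ttk after Nkx6.1. Mad2l1, the checkpoint protein that captures Cdc20, read -2.32, -2.47, -2.01, -2.54 and -2.34 under Nkx6.1, -2.22, -2.11 and -2.0 under Pdx1, and -3.21, -3.39, -3.82, -3.60 and -3.72 under bGAL. All 3 groups were tight, and the controls did not overlap the others. Mad2l1 rose by 1.22 (SE 0.18, limma adjusted p = 0.00965) under Nkx6.1 and by 1.44 (SE 0.21, limma adjusted p = 0.00771) under Pdx1. Ttk, the Mps1 kinase that starts checkpoint signalling at kinetochores, read -2.55, -2.16, -2.30, -2.98 and -2.47 under Nkx6.1, -2.63, -2.39 and -2.14 under Pdx1, and -3.34, -3.45, -3.35, -3.64 and -3.67 under bGAL. It was higher on every array with a factor. Ttk rose by 1.00 (SE 0.20, limma adjusted p = 0.0410) under Nkx6.1, and its difference of 1.10 under Pdx1 (SE 0.23, limma adjusted p = 0.0523) just missed the threshold. Bub1, a checkpoint kinase, averaged -4.35 ± 0.87 under Nkx6.1 (SD, n = 5) and -3.89 ± 0.03 under Pdx1 (SD, n = 3), against -5.45 ± 0.52 under bGAL (SD, n = 5), and its differences of 1.10 and 1.56 did not pass.

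Around the anaphase-promoting complex, Cdc20 and Pttg1 rose after Nkx6.1. Cdc20, the activator that brings substrates to the complex, read -0.34, -1.13, 0.47, -0.23 and -0.67 under Nkx6.1, -0.91, -0.50 and -1.21 under Pdx1, and -2.88, -2.02, -4.26, -2.22 and -1.72 under bGAL. The controls spanned over 2 units but stayed below every other array. Cdc20 rose by 2.24 (SE 0.44, limma adjusted p = 0.0410) under Nkx6.1, and the difference under Pdx1 was 1.75 (SE 0.51, limma adjusted p = 0.190). Pttg1 encodes securin, the protein whose destruction frees separase. It read -0.81, 2.04, -0.90, -0.99 and -0.86 under Nkx6.1, -1.06, -1.71 and -1.94 under Pdx1, and -3.43, -2.98, -3.29, -3.45 and -3.12 under bGAL. Nkx6.1 array 2 was far above the other 4, which were close together and above all Pdx1 values. Pttg1 rose by 2.95 (SE 0.50, 7.73-fold, limma adjusted p = 0.0202) under Nkx6.1, or by 2.36 (limma adjusted p = 0.000221) without that array. Under Pdx1 the difference was 1.69 (SE 0.58, limma adjusted p = 0.264), and it passed in the fit without Nkx6.1 array 2 at the same 1.69 (limma adjusted p = 0.00165).

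Ube2c, the E2 enzyme of the complex, did not pass, though its groups did not overlap. Its means were -1.69 ± 0.97 under Nkx6.1 (SD, n = 5) and -1.45 ± 0.17 under Pdx1 (SD, n = 3), against -3.82 ± 0.83 under bGAL (SD, n = 5). The differences were 2.13 (SE 0.47, limma adjusted p = 0.0659) under Nkx6.1 and 2.37 (SE 0.54, limma adjusted p = 0.0857) under Pdx1. Fbxo5, the Emi1 inhibitor of the complex, differed by 1.21 under Nkx6.1 and 1.88 under Pdx1, neither called. Nkx6.1 array 2, at -3.99, was the lowest Fbxo5 value of all. Cdca3 had no probe.

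At the kinetochore 1 of 6 probes passed. Cenpt, which links centromeric chromatin to the outer kinetochore, read on its complete probe -1.91, -1.26, -1.39, -1.82 and -1.93 under Nkx6.1, -2.15, -2.03 and -2.12 under Pdx1, and -6.64, -3.84, -6.04, -3.88 and -2.83 under bGAL. The controls bGAL 1 and 3 were far below the rest, and no control overlapped the other groups. This probe rose by 2.98 (SE 0.59, 7.91-fold, limma adjusted p = 0.0410) under Nkx6.1, and by 2.55 under Pdx1 without passing (SE 0.69, limma adjusted p = 0.160). The other Cenpt probe, with 8 values, differed by -0.42 under Nkx6.1 and 0.22 under Pdx1.

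The remaining kinetochore members were not called. Cenpe, the motor that carries chromosomes to the spindle equator, differed by 1.82 (SE 0.44, limma adjusted p = 0.0912) under Nkx6.1 and by 1.26 under Pdx1, and its values did not overlap the controls in either comparison. Spc25, a subunit of the Ndc80 complex that holds microtubules, differed by 0.97 and 1.46. The 2 probes of Cenpf, a large kinetochore protein, differed by 0.12 and -0.17 under Nkx6.1 and by 0.21 and 1.03 under Pdx1. Nuf2 and Ndc80, the partners of Spc25, had no probe.

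Proteins of the spindle microtubules formed the group with the most calls, 5 of 7 probes after each factor. Stmn1, a protein that takes microtubules apart and also serves in interphase cells, read -0.45, -0.93, -0.75, -0.68 and -0.80 under Nkx6.1, -0.76, -0.60 and -0.85 under Pdx1, and -2.25, -2.47, -2.12, -2.15 and -2.44 under bGAL. The 2 factors gave the same level within their spread, far above a tight control group. Stmn1 rose by 1.57 (SE 0.17, limma adjusted p = 0.00148) under Nkx6.1 and by 1.55 (SE 0.19, limma adjusted p = 0.00288) under Pdx1. Hmmr, which organizes spindle poles and is also known as a hyaluronan receptor, read -2.26, -1.55, -1.91, -2.40 and -2.10 under Nkx6.1, -2.18, -1.91 and -2.12 under Pdx1, and -4.17, -3.53, -4.62, -3.68 and -4.29 under bGAL. The control group was again apart on every array. Hmmr rose by 2.01 (SE 0.24, limma adjusted p = 0.00238) under Nkx6.1 and by 1.99 (SE 0.28, limma adjusted p = 0.00622) under Pdx1.

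Tpx2 activates Aurka on the spindle and starts microtubules near chromatin. It read -2.58, -1.54, -1.86, -2.21 and -2.30 under Nkx6.1, -2.23, -2.20 and -2.28 under Pdx1, and -4.55, -3.66, -4.22, -3.49 and -3.53 under bGAL. No array with a factor reached down to the controls. Tpx2 rose by 1.79 (SE 0.26, limma adjusted p = 0.00751) under Nkx6.1 and by 1.65 (SE 0.30, limma adjusted p = 0.0296) under Pdx1. Ckap2, a microtubule protein of the spindle, read -1.40, -1.91, -0.91, -1.34 and -0.95 under Nkx6.1, -1.12, -0.62 and -1.08 under Pdx1, and -2.77, -2.98, -2.80, -3.30 and -3.04 under bGAL. It was the only member of this role with a higher mean under Pdx1 by over 0.3, a difference within its error (Nkx6.1 minus Pdx1 -0.36, 95% interval -0.92 to 0.20). Ckap2 rose by 1.67 (SE 0.23, limma adjusted p = 0.00491) under Nkx6.1 and by 2.04 (SE 0.26, limma adjusted p = 0.00322) under Pdx1.

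Tacc3 crosslinks the microtubule bundles that pull on kinetochores, and its 2 probes went apart. The complete probe (Rn30015862) read -2.36, -2.36, -2.07, -2.58 and -2.34 under Nkx6.1, -2.29, -2.28 and -2.51 under Pdx1, and -3.93, -3.57, -4.10, -4.02 and -3.80 under bGAL. It rose by 1.54 (SE 0.17, limma adjusted p = 0.00182) under Nkx6.1 and by 1.53 (SE 0.20, limma adjusted p = 0.00407) under Pdx1. The other probe (Rn30015861) had 10 values and differed by -0.78 under Nkx6.1 and -1.04 under Pdx1, with 3 control values of -0.01, -0.22 and -0.10. Nusap1, which bundles microtubules near chromosomes, differed by 0.17 and 0.06, with means near 0 in all groups.

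**Figure D3:**
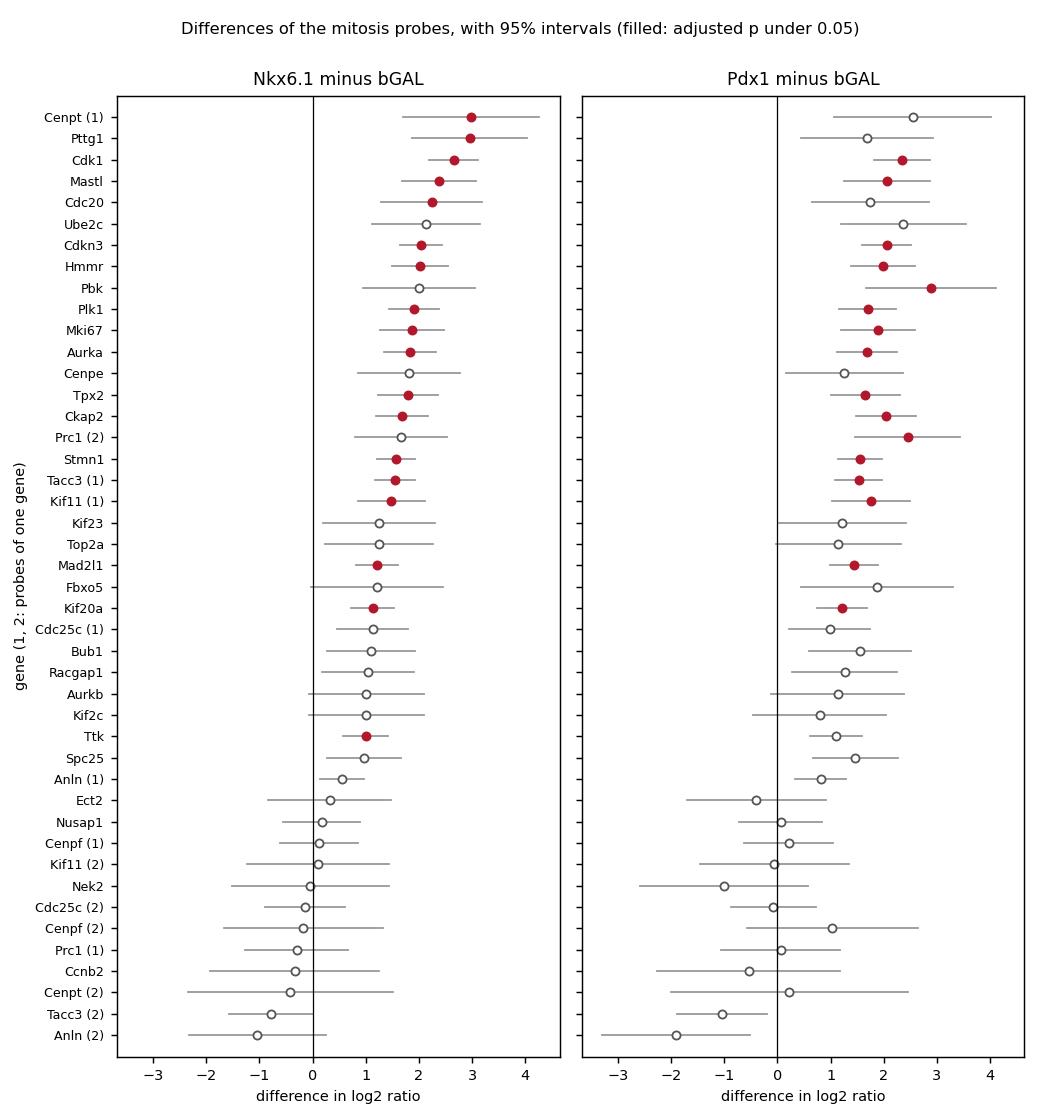
Difference in log2 ratio of the 44 mitosis probes (rows, in order of the Nkx6.1 difference), Nkx6.1 minus bGAL on the left and Pdx1 minus bGAL on the right, with 95% intervals, filled where the adjusted p was under 0.05. Most probes lie to the right of 0 in both panels, 36 of 44 under Nkx6.1 and 37 of 44 under Pdx1.

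Of the 4 mitotic kinesins, Kif20a and 1 of the 2 Kif11 probes rose after both factors. Kif11, the motor that pushes spindle poles apart, read on its complete probe -3.32, -4.10, -2.86, -3.37 and -2.99 under Nkx6.1, -3.23, -2.79 and -3.12 under Pdx1, and -5.42, -4.74, -5.21, -4.12 and -4.55 under bGAL. Nkx6.1 array 2 and bGAL array 4 nearly met, and the groups otherwise stood clear of each other. Kif11 rose on this probe by 1.48 (SE 0.29, limma adjusted p = 0.0410) under Nkx6.1 and by 1.76 (SE 0.34, limma adjusted p = 0.0385) under Pdx1. The other Kif11 probe (Rn30015315), with 9 values, differed by 0.10 under Nkx6.1 and -0.06 under Pdx1. Kif20a, a motor of the central spindle needed for cytokinesis, read -1.54, -1.74, -1.59, -2.01 and -1.39 under Nkx6.1, -1.47, -1.69 and -1.56 under Pdx1, and -2.77, -2.76, -2.51, -3.17 and -2.71 under bGAL. Its groups did not overlap. Kif20a rose by 1.13 (SE 0.19, limma adjusted p = 0.0179) under Nkx6.1 and by 1.21 (SE 0.22, limma adjusted p = 0.0288) under Pdx1. Kif23, the motor of centralspindlin, differed by 1.25 and 1.22 under Nkx6.1 and Pdx1, and Kif2c, which takes microtubules apart at centromeres, by 1.01 and 0.79, none of them called.

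In cytokinesis 0 of 6 probes passed under Nkx6.1 and 1 under Pdx1, and the 2 probes of Prc1 gave different answers. Prc1 bundles the microtubules of the central spindle. One probe (Rn30012018) read -3.75, -4.26, -2.21, -2.76 and -2.83 under Nkx6.1, -2.55, -2.21 and -2.37 under Pdx1, and -5.31, -5.68, -4.30, -4.11 and -4.72 under bGAL. The Pdx1 values were all above the controls, while Nkx6.1 array 2 reached into the control range. This probe rose by 2.45 (SE 0.46, limma adjusted p = 0.0362) under Pdx1, against a difference of 1.66 (SE 0.40, limma adjusted p = 0.0852) under Nkx6.1. The other (Rn30012017) also had 13 values and lay near 0, with differences of -0.30 under Nkx6.1 and 0.06 under Pdx1. Racgap1, the partner of Kif23 in centralspindlin, differed by 1.04 and 1.26 under Nkx6.1 and Pdx1, and Ect2, the RhoA exchange factor it recruits, by 0.32 and -0.39. Anln, a scaffold of the contractile ring, differed by 0.55 and -1.04 on its 2 probes under Nkx6.1 and by 0.81 and -1.91 under Pdx1.

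Mki67, the coat protein of mitotic chromosomes used as the Ki-67 marker of dividing cells, read -3.26, -2.29, -2.45, -2.81 and -2.59 under Nkx6.1, -2.75, -2.49 and -2.71 under Pdx1, and -5.36, -4.03, -4.80, -4.00 and -4.55 under bGAL. Every control was below every other array. Mki67 rose by 1.87 (SE 0.28, 3.65-fold, limma adjusted p = 0.00920) under Nkx6.1 and by 1.90 (SE 0.32, 3.73-fold, limma adjusted p = 0.0213) under Pdx1. Top2a, the topoisomerase that untangles sister chromatids, differed by 1.24 (SE 0.47, limma adjusted p = 0.247) under Nkx6.1, where array 3 alone read 0.05 and the other 4 lay between -3.11 and -2.28. Under Pdx1 its difference was 1.15 (SE 0.54, limma adjusted p = 0.431), and its values did not overlap the controls in either comparison.

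Whether a probe moved went with how complete its values were. Of the 31 mitosis probes without an empty value, 18 were called under Nkx6.1 and 16 under Pdx1, 30 and 31 had a difference above 0, and the median difference was 1.66 and 1.68. Of the 13 probes with an empty value, 0 were called in either comparison, 6 had a difference above 0 in each, and the median was -0.04 under Nkx6.1 and -0.06 under Pdx1. In a fit of complete probes alone, 1.23% of all such probes were called as higher under Nkx6.1 and 0.833% under Pdx1. Among all tested probes these shares were 0.412% and 0.44%, and 43.7% and 42.3% had a difference above 0. Shares among all incomplete probes were not counted. Over all tested probes the median was -0.06 for complete and -0.10 for incomplete probes under Nkx6.1, and -0.03 and -0.18 under Pdx1. Most of those probes were not called in either kind, so these medians cannot show how empty values bear on a probe that changes. In 5 of the 7 genes with 2 tested probes (Cdc25c, Cenpt, Tacc3, Kif11 and Anln), the complete probe had the higher signed difference under both factors, though for Anln the incomplete probe had the larger one in size. For Prc1 both probes were complete, and for Cenpf neither was.

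**Figure D4:**
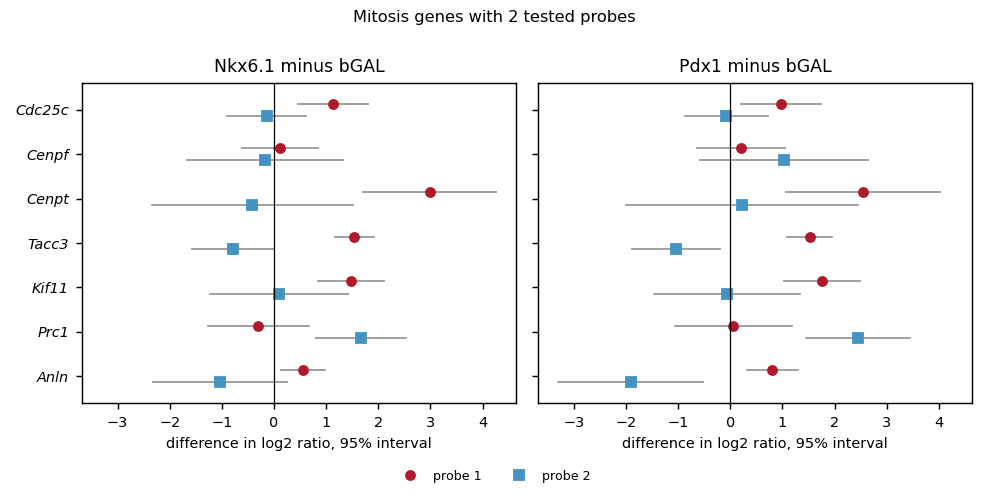
Difference in log2 ratio with its 95% interval for both probes of the 7 mitosis genes that have 2 tested probes, Nkx6.1 minus bGAL on the left and Pdx1 minus bGAL on the right. The intervals of Tacc3 do not meet (1.54 and -0.78 under Nkx6.1), whereas those of Cenpf overlap widely.

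The 2 factors were not told apart by these genes. In the comparison of Nkx6.1 with Pdx1, limma called 0 of the 44 mitosis probes, where 0.217% of all probes were called in either direction, and 1 had an unadjusted p under 0.05, higher under Nkx6.1, where 3.59% of all probes did. That probe was Pttg1, with a difference of 1.27 (95% interval 0.02 to 2.51, limma adjusted p = 0.721). Values of 2 probes did not overlap between the factors, Pttg1 and the complete Cenpt probe, both higher under Nkx6.1, where 6.1% of all probes did so in that direction. The median difference was 0.02, as it was for all probes, and the 95% interval of 43 of the 44 probes held 0. For the 14 probes called against bGAL under both factors, the differences between the factors ran from -0.36 to 0.31, with interval bounds from -1.01 to 1.12, which leaves room for differences of about 1 unit either way. Pttg1, Cdc20, Cenpt and Ttk passed under Nkx6.1 alone and Pbk and Prc1 under Pdx1 alone, but none of these 6 differed between the factors by the test of that difference.

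The set of arrays with many empty values was unevenly spread over the groups, so the comparisons were repeated with it as a block. The block left 5 calls under Nkx6.1 (Cdk1, Cdkn3, Plk1, Stmn1 and Tacc3), where 0.0557% of all probes passed as higher. There were 15 once Nkx6.1 array 2 was left out as well, where the share of all probes rose to 0.367%. The block left 4 under Pdx1 (Cdk1, Cdkn3, Stmn1 and Ckap2), where 0.117% did, and 10 without that array, where 0.345% did. The blocked median differences were 1.23 under Nkx6.1 and 1.44 under Pdx1, close to those without the block. Within the 8 arrays with few empty values, which hold only bGAL array 4 as a control, the medians were 1.23 under Nkx6.1 and 1.24 under Pdx1, where those of all probes were -0.01 and -0.02. Within the 5 arrays with many, which hold only Nkx6.1 array 1 and no Pdx1 array, the median was 1.49 over 35 probes, where that of all probes was 0.06. With 1 array in an arm these are values without a spread of that arm, and no test is read from them. Cdk1 differed by 2.66 in the first set and by 2.86 in the second under Nkx6.1, and by 2.40 in the first under Pdx1.

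The spread of log ratios also differed between arrays, as given above. With every array scaled to 1 spread, the median difference was 1.11 under Nkx6.1 with 14 calls (0.395% of all probes called as higher) and 0.87 under Pdx1 with 7 calls (0.462%). Quantile normalization gave 0.78 under Nkx6.1 with 4 calls (Cdk1, Aurka, Mastl and Stmn1), where 0.134% of all probes were called as higher. Under Pdx1 it gave 0.57 with 0 limma calls, where 0.312% of all probes were called, and 15 higher at an unadjusted p under 0.05 (all probes: 5.46%). Under these scalings no called member changed sign. Without Nkx6.1 array 2 there were 25 calls under Nkx6.1 and 23 under Pdx1, and the calls over all probes rose as well, to 0.868% and 1.14% as higher. Bub1, Ube2c, Fbxo5, Cenpe and the complete Anln probe were added in both comparisons, and Cenpt was lost under Nkx6.1.

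Other genes of the cell cycle were counted in the same fit, from lists drawn up with earlier results of these data known. Of 54 probes for 43 further mitosis genes, 6 passed as higher under Nkx6.1 and 4 under Pdx1, where 0.412% and 0.44% of all probes did. Of these 54, 0 passed as lower, and the median differences were 0.40 and 0.61. At an unadjusted p under 0.05, limma gave 21 (38.9%) and 22 (40.7%) higher, where 5.24% and 4.09% of all probes were, and 1 and 0 lower. Melk, a kinase of dividing cells, rose by 1.51 and 1.44 under Nkx6.1 and Pdx1 (limma adjusted p = 0.00406 and 0.0131). Ska1, which keeps kinetochores on microtubules, rose by 1.48 and 1.84 (limma adjusted p = 0.0120 and 0.00677), and Dlgap5, a spindle protein, by 1.89 and 1.86 (limma adjusted p = 0.0168 and 0.0385). Kif22, a chromosome-arm kinesin, rose by 1.12 under Nkx6.1 (limma adjusted p = 0.0185), with 0.59 under Pdx1. Aspm, a spindle pole protein, rose by 1.98 under Pdx1 (limma adjusted p = 0.000620) with 0.80 under Nkx6.1, and was the 1 probe of this list that differed between the factors (Nkx6.1 minus Pdx1 -1.19, SE 0.20, limma adjusted p = 0.0235).

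Genes that act before mitosis or beside it came next. Of 39 probes for G1/S cyclins and DNA replication, 1 passed under Nkx6.1 and 0 under Pdx1, but 16 (41.0%) were higher at an unadjusted p under 0.05 in each, where 5.24% and 4.09% of all probes were. The medians were 0.56 and 0.63. Over complete probes, the median difference from each probe's bGAL mean was 0.39 to 0.94 and 0.62 to 0.90 on single arrays, against at most 0.11 on a bGAL array. The called gene was Ccna2, the cyclin A of S and G2 phase, with differences of 2.04 and 2.28 (limma adjusted p = 0.0441 and 0.0553). Among 20 probes for cell-cycle transcription regulators, the repressor E2f8 rose by 2.44 and 2.20 (limma adjusted p = 0.00203 and 0.00789), and 4 and 2 probes were higher at an unadjusted p under 0.05. The list medians were -0.10 and 0.05. Over its complete probes, however, the median difference from each probe's bGAL mean was 0.49 to 0.91 on the Nkx6.1 arrays. It was 0.42 to 0.72 on the Pdx1 arrays, against -0.50 to 0.22 on single bGAL arrays. Mybl2, an activator of G2/M genes, differed by 1.60 and 0.72 without passing. The 13 probes of a list for the anaphase-promoting complex, which holds its subunits and also the E2 enzyme Ube2s, had 0 calls in either comparison. Their medians were 0.02 and 0.06, with 2 higher at an unadjusted p under 0.05 in each and 0 and 1 lower. Under Nkx6.1 the 2 were Cdc27 and Ube2s. The 10 cohesin probes had 0 calls, medians of -0.46 and -0.31, and 1 lower at an unadjusted p under 0.05 in each. The 7 probes for cell-cycle inhibitors had 0 calls and medians of 0.10 and 0.40, with 1 and 2 higher at an unadjusted p under 0.05. Over the 5 complete probes of this list, the median difference from each probe's bGAL mean was 0.56 to 0.95 on the Pdx1 arrays. It was 0.00 to 0.47 on the Nkx6.1 arrays and -0.45 to 0.28 on single bGAL arrays.

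**Figure D5:**
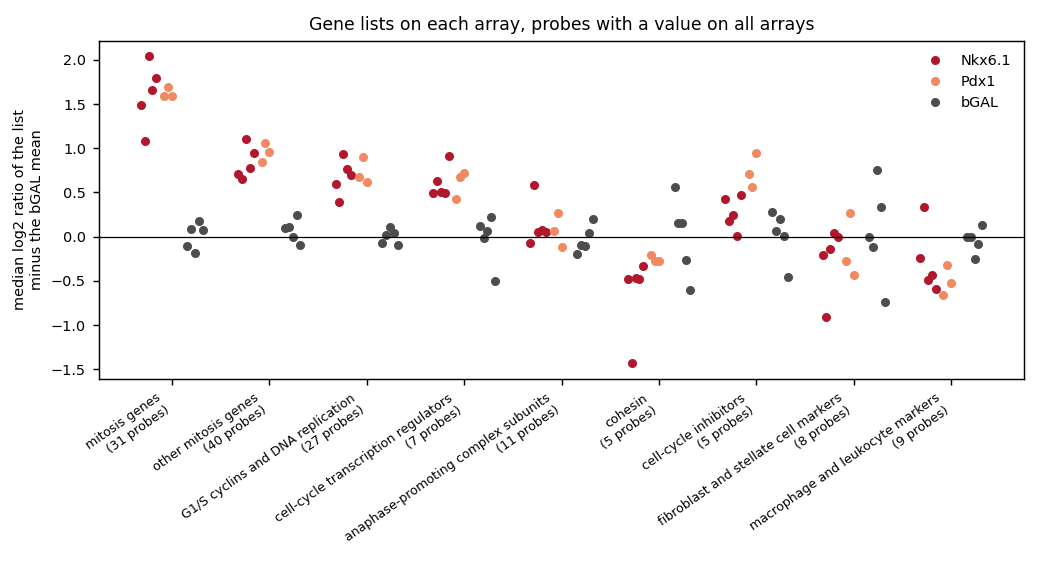
Each point is the median, over the probes of a gene list, of the log2 ratio on an array minus that probe's bGAL mean (vertical axis). Only probes with no empty value were used, with 1 point per array of Nkx6.1, Pdx1 and bGAL. Under Nkx6.1 the mitosis genes lie 1.08 to 2.04 above 0 and under Pdx1 1.59 to 1.69, and the further mitosis genes 0.65 to 1.10 and 0.84 to 1.05.

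The measured markers of fibroblasts, endothelial cells and leukocytes did not rise with these genes, though only 4 of the 10 endothelial genes listed were measured. Of 12 probes for fibroblast and stellate cells, 4 for endothelial cells and 11 for macrophages and leukocytes, 0 were called by limma in either comparison with bGAL, and 0 were higher at an unadjusted p under 0.05. Their median differences were -0.34, -0.04 and -0.24 under Nkx6.1 and -0.47, -0.39 and -0.42 under Pdx1. The array medians of the fibroblast list ran from -2.46 to -1.23 under Nkx6.1 and from -2.06 to -1.78 under Pdx1, against -2.67 to -0.58 under bGAL. Those of the macrophage list ran from -1.48 to -0.22 under Nkx6.1 and from -1.73 to -1.06 under Pdx1, against -1.46 to -0.86 under bGAL. The 5 acinar probes had medians of 0.51 and 0.19 with 0 calls. Of these, 2 and 1 (40% and 20%) were higher at an unadjusted p under 0.05, where 5.24% and 4.09% of all probes were. The 5 duct probes had medians of -0.04 and -0.43 with 0 calls, and 1 and 0 (20% and 0%) were higher at that threshold. The 2 Schwann cell probes had medians of 0.21 and 0.09 and 0 calls. The 9 beta cell probes had medians of 0.33 and 0.23, 0 calls and 1 and 0 higher at an unadjusted p under 0.05, and quantile normalization moved these medians to 1.61 and 2.03, still with 0 calls. Of 8 probes for other hormone cells, 2 fell under Nkx6.1, Rbp4 by 2.84 and Hhex by 1.65 (limma adjusted p = 0.00148 and 0.00406), and 0 passed under Pdx1, where 1 was higher and 1 lower at an unadjusted p under 0.05. Of all 17965 tested probes, 115 passed under Nkx6.1 in either direction, 74 of them as higher and the rest as lower. The medians of these 8 probes were -0.88 and -0.19, and turned to 0.46 and 1.69 under quantile normalization. Which islet cells carried the mitosis RNA was not measured.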

How the data were processed

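The authors' deposited table holds 1 log2 ratio of islet over reference RNA per probe and array (26984 probes, 22 of them control spots left out here). Base 2 is read from the range of the values, since no label states it, and the direction from the dyes in the labels (islet RNA Cy5, reference Cy3) and from the islet hormone probes far above 0. Per the labels' protocols, 500 ng of RNA went through 2 rounds of amplification. How background was corrected, arrays were normalized and values came to be empty is not given in the sources used here. Ratios are given without intensities, so the number of arrays limits the precision.

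Gene symbols came from the platform annotation and were brought up to date with RefSeq names: 12034 probes had a current symbol and 3671 an updated one, while 60 were unmatched and 42 kept an older name whose current form was also in use. Among the latter are 2 Aim1 probes, an old synonym of Aurkb, which were not taken as members.

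The 17965 probes with 2 or more values per group were fitted with limma 3.58.1 (R 4.3.3, statmod 1.5.0) as 1 model of 3 groups over 13 arrays, with no block and no variance trend, two-sided, adjusted by Benjamini-Hochberg over all of them, threshold 0.05. Empty values were left out of a probe's fit and none were imputed. The fit was tested on simulated data. Every member is named. Values are given array by array for members past the threshold in either comparison with bGAL, and up to 4 genes per further list are named, those with the smallest p. The members, roles and lists were chosen with earlier results of these data known. Promoter letters were counted in the first listed RefSeq window of each gene. The alternatives tried were other scalings between arrays, other filters, variance models, blocks and each array left out in turn. Added after the data were seen were the Aim1 probes, the arrays with many empty values alone, and 1 probe per gene. Intervals are 95% intervals from the same fit.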

Additional observations from a re-analysis of the deposited data

Results flagged for a closer look

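In 10 of 85 groups of 4 or 5 arrays examined (the mitosis probes with 4 or 5 values in the Nkx6.1 or bGAL group, and the median of the complete mitosis probes in both groups), 1 array lay far from the others by Dixon's criterion, which chance alone meets in about 1 in 20 groups. All 10 were in the Nkx6.1 group, and 7 were on Nkx6.1 array 2. That array was low for Bub1 (-5.84, others -4.26 to -3.65), Kif2c (-4.89, others -2.44 to -1.94), Aurkb (-4.17, others -2.25 to -1.59), Pbk (-4.12, others -1.77 to -1.24) and Anln (-4.01, others -3.38 to -3.15). It was high for Pttg1 (2.04, others -0.99 to -0.81) and Cenpe (1.29, others -1.49 to -0.75). Over the 31 complete mitosis probes, it was the lowest Nkx6.1 array for 15 and the highest for 9. Nkx6.1 array 1 was high for Kif23 (-0.20, others -2.46 to -1.95) and Ect2 (-0.24, others -2.42 to -1.95). Nkx6.1 array 3 was high for Top2a (0.052, others -3.11 to -2.28).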

How the results depend on the processing

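Counts below are mitosis probes called by limma, main values 18 under Nkx6.1 and 16 under Pdx1 (medians 1.21 and 1.35). Quantile normalization gave 4 and 0 (medians 0.78 and 0.57), the array set as a block 5 and 4, and that block without Nkx6.1 array 2 15 and 10. Only the 8 arrays with few empty values gave a median of 1.24 under Pdx1, and those with many gave 1.49 under Nkx6.1. Both fits have 1 array in an arm, which limma takes to vary like the others, so no count of calls is read from them. One spread for all arrays gave 7 under Pdx1 (median 0.87) and moved the median of Nkx6.1 minus Pdx1 to 0.39. A robust variance trend gave 8 under Pdx1 (0.250% of all probes called as higher), and fitting only the groups compared gave 10 under Nkx6.1 (0.122%). Complete probes alone had medians of 1.66 and 1.68. Keeping 1 probe per gene, the one with the most values, gave a Pdx1 median of 1.53, so this choice also favours complete probes. Leaving out 1 array at a time gave 12 to 25 calls (medians 1.11 to 1.44) under Nkx6.1 and 4 to 23 (medians 1.30 to 1.52) under Pdx1. Over the same fits, the share of all probes called as higher ran from 0.173% to 1.37% under Nkx6.1 and from 0.0835% to 1.14% under Pdx1. The lowest Pdx1 counts were without Pdx1 array 2 (4), 1 (6) or 3 (7) and without bGAL array 1 (10). Calls held in every such fit for 12 of 18 probes under Nkx6.1 (Cdk1, Cdkn3, Plk1, Aurka, Mastl, Mad2l1, Stmn1, Hmmr, Tpx2, Tacc3, Ckap2 and Mki67) and for 4 of 16 under Pdx1 (Cdk1, Cdkn3, Stmn1 and Ckap2). No called probe changed sign under any alternative tried, the lowest differences being 0.45 and 0.46, whereas uncalled probes did so 37 times (13 probes) under Nkx6.1, not counting the fit on arrays with many empty values, and 27 times (7 probes) under Pdx1. The causes of these changes were not tested. Nkx6.1 against Pdx1 had 0 calls throughout.

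Deviations of same-numbered Nkx6.1 and bGAL arrays correlated at 0.47 and 0.33 for numbers 1 and 4, each best with its own number, but at -0.05, -0.04 and -0.18 for 2, 3 and 5, and those of Pdx1 and bGAL at -0.13, 0.05 and 0.07, so the numbers were not taken to pair the samples. With the replicate number as a block, 8 probes passed under Nkx6.1 and 3 under Pdx1 (all probes, higher: 0.0946% and 0.111%), and the medians were 1.21 and 1.33.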
